A study of Caenorhabditis elegans with 6 samples.

Results

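The histone genes of the worm Caenorhabditis elegans that carry the name his were followed in RNA recovered with polysomes tagged under a neuronal promoter. They were chosen by identifier, as the 72 consecutive gene identifiers from WBGene00001875 (his-1) to WBGene00001946 (his-72), without use of any measured value. Of these identifiers, 71 were annotated on the WBcel235 assembly and 35 were among the 5739 genes of the deposited table. Symbols are those of RefSeq at the same start and end on this assembly, because the Ensembl gene names give 1 symbol to several histone genes at different places. WBGene00001910 is annotated as C50F4.6 and is named so here.

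Histones package DNA. Pairs of H2A, H2B, H3 and H4 form the core of the nucleosome, and the linker histone H1 binds the DNA between nucleosomes. In animals most core histone genes are repeated, lack introns and are used in S phase, when new DNA must be packaged, and their messenger RNA ends in a stem-loop in place of a poly(A) tail. Variant genes, such as those for replacement H3, stand alone, often have introns and are also used in cells that no longer divide, neurons among them.

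Of the 6 libraries, 3 were of wild type and 3 of the allele alg-2(ok304), here called the mutant, which affects a gene for an Argonaute protein of the miRNA pathway. Each library came from a large pool of worms. The worms of both groups were synchronized at the L4 stage and carried a single-copy transgene in which the neuronal rgef-1 promoter drives a tagged RPL-18, a ribosomal protein, together with HIS-58 fused to GFP. Polysomes were taken from lysates of whole animals with beads against the FLAG tag, and the library kit named in the methods primes from poly(A) tails. The strain list of the study writes FLAG for the wild-type strain and HA for the alg-2(ok304) strain, which was not settled here. The headers of the table name a knockout of ALG1 for the second group. The sample titles give ok304, which is an allele of alg-2 in that strain list, and the group is named by it here. The study describes the immunoprecipitations as biological triplicates, and no input RNA was analysed here.

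The value given for a gene in a library is a fitted read number, the product of a level for the group and a factor for the library. In wild type the values of libraries 2 and 3 were 1.397 and 1.518 times those of library 1 in every gene above 0, and in the mutant 1.174 and 2.245 times. Replicates therefore carry no spread, no error can be given, no test between the groups could be run, and every difference below is a description. Fitted reads summed to between 4769250 and 17692391 per library, of which ribosomal RNA genes held 97.9% in wild type and 85.1% in the mutant. To compare the groups, sums over the 3 libraries of a group were set on a common scale. On this scale, an estimate, equal expression is taken as 2.54 times as many fitted reads in the mutant as in wild type. Log2 ratios are the mutant over wild type on this scale. The other scales tried, described below, put that factor between 0.46 and 6.32. Fewer cells and less RNA per cell cannot be told apart in these bulk samples. Of 20 neuronal marker genes 6 were listed, all above 0 in at least 1 group, and rgef-1 was not among them. Their summed fitted reads were 9.61 in wild type and 62.7 in the mutant, against 837 and 1398 for 15 body wall muscle markers, all listed, and 5.94 and 24.9 for the 5 germline markers listed of 15. The muscle markers thus held more fitted reads than the neuronal ones in both groups. The part of neurons in the RNA was not tested, and the values below are not read as neuronal. alg-2 itself had 16.6 and 11.1 fitted reads, and reads outside a deleted stretch would also be counted.

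The table listed unequal shares of the core classes. Classes were assigned from the annotated coding length and the symbol, and C50F4.6 and his-39 were left without a class. H2A genes were listed in 12 of 17 cases and H2B genes in 11 of 16, whereas H3 genes were listed in 6 of 15 and H4 genes in 3 of 16. Of the 4 genes for H3 variants, his-70 and his-72 were listed and his-69 and his-71 were not. The gene his-24, which encodes a linker histone H1, was not listed either. A gene that is not listed need not have been low. Listing follows a minimum level in at least 2 libraries, and libraries outside these 6 can meet it. The listed shares by class therefore need not reflect these 6 libraries. Above 0 in at least 1 group were 6 of 17 H2A, 9 of 16 H2B, 5 of 15 H3 and 2 of 16 H4 genes.

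Listing was not the same as signal. Of the 35 genes, 10 were listed at 0 in both groups, which was the case for 953 of the 5739 genes of the table (16.6%). These 10 were his-7, his-19, his-20, his-21, his-51, his-53 and his-54 on chromosome V, his-46 and his-55 on chromosome IV, and his-68 on chromosome I. Their average log2 CPM (a column of the authors, CPM being counts scaled to library size) nevertheless differed between genes, from -3.49 to -2.26, so that libraries outside the 6 entered that average. The remaining 25 genes were above 0 in at least 1 group, 13 of them in both groups, 11 listed at 0 in wild type only and 1 at 0 in the mutant only.

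**Figure D1:**
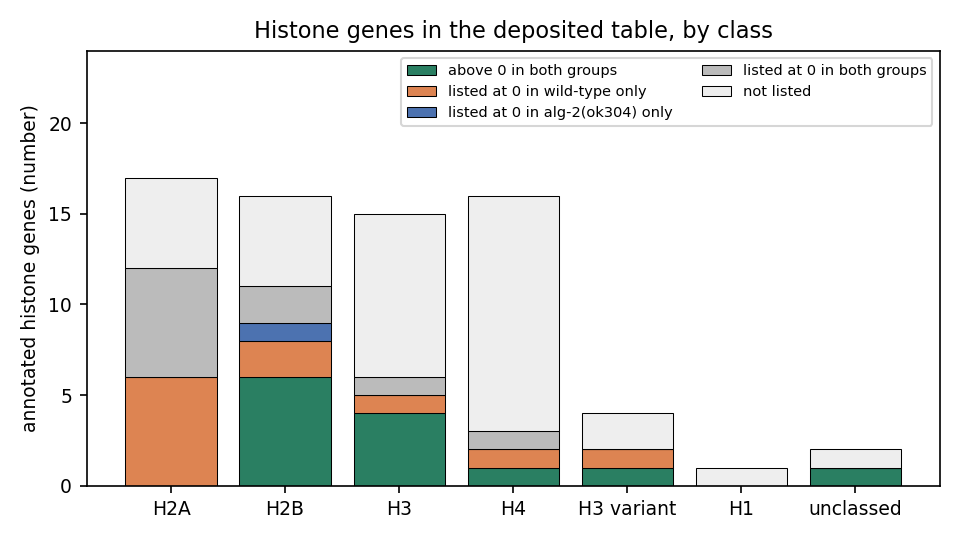
Number of annotated histone genes (vertical axis) in each class (horizontal axis), split by whether and where the deposited table lists them above 0. H4 stands out by 13 of 16 genes not listed, and H2A by having no gene above 0 in wild type.

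The levels were low. The median of the 25 genes was 0.951 summed fitted reads for wild type against 10.95 for the mutant, near the medians of all genes outside ribosomal RNA that were above 0 in at least 1 group, 1.11 and 11.7. At least 10 fitted reads in 1 group were reached by 16 of the 25 genes, against 60.3% of all such genes. The highest histone value was 24.3 in wild type, for his-13, and 99.3 in the mutant, for his-15. In total the histone genes held 134 and 544 fitted reads, 0.0140% and 0.0173% of the fitted reads outside ribosomal RNA.

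On the common scale 17 of the 25 genes were at least 2-fold higher in the mutant and 7 at least 2-fold lower, with his-41 between. Among all genes above 0 in at least 1 group, 54.3% were at least 2-fold higher and 17.7% at least 2-fold lower, next to 68% and 28% of the histone genes, and nothing is read from these differences over 25 genes that partly share sequence. Their median log2 ratio was 1.76 with a pseudocount of 0.5 fitted reads, against 1.22 for all such genes. For the genes above 0 in both groups, without a pseudocount, the medians were 0.83 and 0.58. A level of 0 in wild type only was found for 11 of the 25, against 38.3% of all genes, and a level of 0 in the mutant only for 1 of the 25, against 6.16%. Directions differed both between and within classes: of the H2B genes above 0, 5 were at least 2-fold higher and 3 lower, and of the H3 genes 1 was higher and 4 lower.

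**Figure D2:**
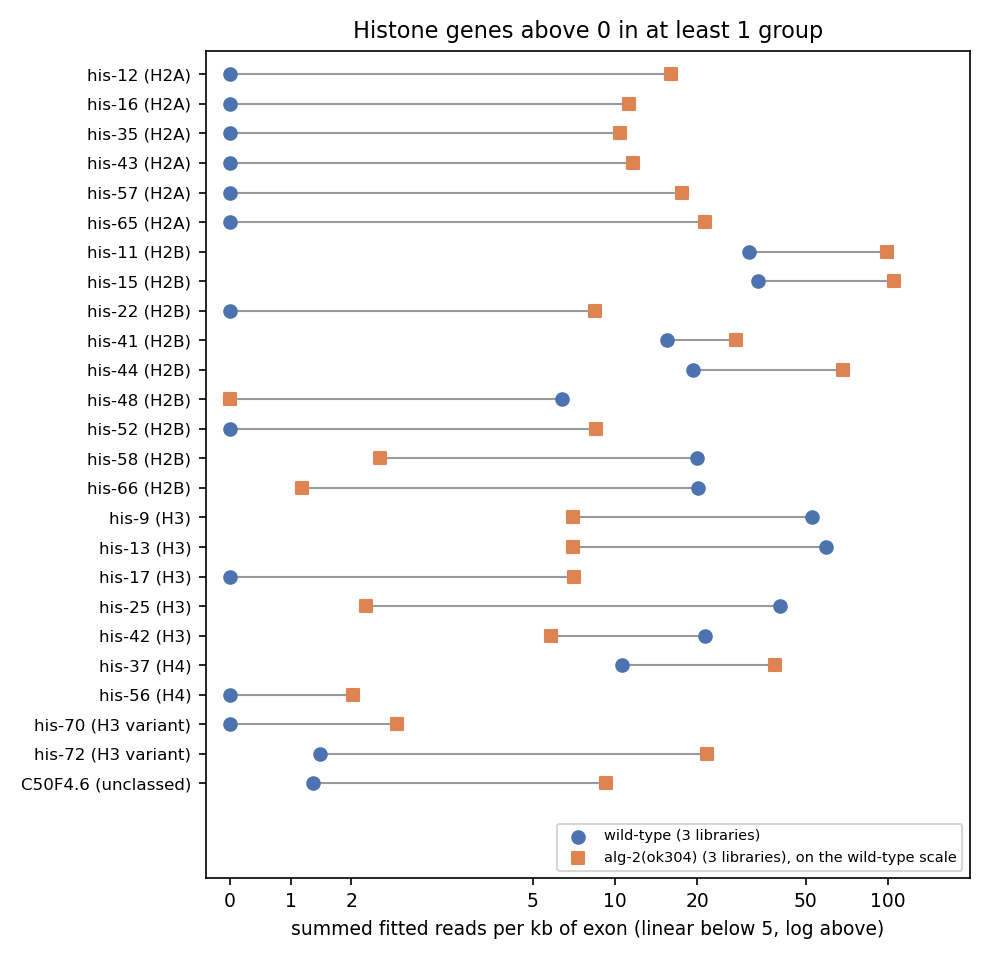
Summed fitted reads per kb of exon (horizontal axis, linear below 5 and logarithmic above) for each of the 25 histone genes above 0 in at least 1 group, in wild type (circles) and in the mutant on the wild-type scale (squares). H2A genes were at 0 in wild type, H3 genes of chromosome II were lower in the mutant, and the H2B genes lay on both sides.

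H3 is the core histone whose tail carries many of the known methylation and acetylation marks. The gene his-9 (WBGene00001883; chromosome II, 13823648 to 13824058) had 5.56, 7.76 and 8.43 fitted reads in wild-type libraries 1 to 3 and 1.66, 1.95 and 3.73 in those of the mutant. These sum to 21.7 and 7.34, a log2 ratio of -2.92. The wild-type libraries were higher although the scale would give more reads to the mutant at equal expression. The gene his-13 (chromosome II, 13820210 to 13820620) had 24.3 fitted reads in wild type against 7.33 in the mutant (log2 ratio -3.08). For his-25 the sums were 16.6 and 2.35, with the log2 ratio at -4.17, and for his-42 they were 8.80 and 6.11, with the log2 ratio at -1.87. All 4 H3 genes above 0 in both groups lie in 1 locus of chromosome II and all 4 were lower in the mutant. The other H3 gene above 0, his-17 of chromosome V, went the other way and was listed at 0 for wild type and had 7.38 fitted reads in the mutant. H3 genes together held 53.3% of the fitted histone reads in wild type and 5.60% in the mutant.

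H2B pairs with H2A in the nucleosome. The highest histone gene of the mutant, his-15 (WBGene00001889; chromosome II, 13818371 to 13818739), had 3.15, 4.39 and 4.77 fitted reads in wild-type libraries 1 to 3 and 22.5, 26.4 and 50.4 in those of the mutant. The sums were 12.3 and 99.3, a log2 ratio of 1.66. his-11 (chromosome II, 13821809 to 13822177) stood at 11.4 and 93.4 with a log2 ratio of 1.68, and his-44 (chromosome II, 13826730 to 13827098) at 7.10 and 64.4 with a log2 ratio of 1.83. Those H2B genes of chromosome IV that were above 0 had the opposite direction, all 3 with under 10 fitted reads in both groups. his-58 (WBGene00001932; 11339735 to 11340106) had 7.45 fitted reads in wild type against 2.34 in the mutant (log2 ratio -3.02), and his-66 (WBGene00001940; 11400415 to 11400786) had 7.47 and 1.13, a log2 ratio of -4.07. his-48 had 2.37 fitted reads in wild type and was listed at 0 for the mutant. The transgene of both strains carries a HIS-58 sequence, so that reads on his-58, and on his-66 where it shares that sequence, can come from the transgene, and their part in the values was not tested. On chromosome V, his-22 and his-52 were listed at 0 for wild type and reached 8.02 and 8.03 fitted reads in the mutant.

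H2A, the other partner of that dimer, was above 0 in the mutant only, among the genes listed. Of 12 listed H2A genes, 6 were at 0 in wild type and above 0 in the mutant, and the other 6 were at 0 in both groups. All 6 H2A genes above 0 in at least 1 group were thus at 0 in wild type only, next to 38.3% of all such genes. Nothing is read from this difference over 6 genes that partly share a symbol. Set on the wild-type scale, their mutant values were only 4.30 to 11.9 fitted reads. Of all genes of the table, 16.6% were at 0 in both groups. The gene his-57 of chromosome IV had 30.3 fitted reads in the mutant and his-65 of the same chromosome 20.9. For the chromosome II genes his-12, his-43 and his-16 the values were 15.7, 11.3 and 10.95. The gene his-35 of chromosome V, which has an intron, had 13.2. his-57 overlaps klp-12, which lies on the opposite strand and had 20.1 and 76.3 fitted reads. Among genes above a minimum level in both groups, the table holds 8 sets whose values are equal to 4 decimals, each with genes of both strands. his-57, at 0 in wild type, lay outside that search, but its reads and those of klp-12 may likewise not be separate. H2A held 18.8% of the fitted histone reads in the mutant and none of those in wild type.

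H4 was the core class with the fewest listed genes. Among its 15 genes without introns, his-46 was listed at 0 in both groups and his-56 at 0 in wild type and 1.61 fitted reads in the mutant, while the other 13 were not listed. The H4 gene with an intron, his-37 (WBGene00001911; chromosome V, 9547105 to 9547607), had 1.16, 1.62 and 1.76 fitted reads in wild-type libraries 1 to 3 and 9.57, 11.2 and 21.5 in those of the mutant. The sums were 4.54 and 42.3, a log2 ratio of 1.87. nstp-10 overlaps his-37 on the opposite strand and had 0.980 and 2.35 fitted reads.

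The contrast between H3 and H2B was found inside a single locus. The histone genes of chromosome II from 13817760 to 13828697 are 13 genes in 10.9 kb, with 3 each of H2A, H2B and H4 and 4 of H3. Along the locus the direction followed the class of the gene. The 4 H3 genes ranged from 8.80 to 24.3 fitted reads (wild type) and from 2.35 to 7.34 (mutant), while the 3 H2B genes of the locus ranged from 7.10 to 12.3 and from 64.4 to 99.3. Per kb of exon and before scaling, the H3 level was 21.4 to 59.2 fitted reads in wild type and the H2B level 19.3 to 33.4, ranges that overlap. In the mutant the H3 level was 5.72 to 17.8 and the H2B level 175 to 269 fitted reads per kb, with no overlap. The 3 H2A genes were at 0 in wild type and at 28.5 to 40.9 fitted reads per kb in the mutant, above the H3 genes. None of the 3 H4 genes was listed. The difference of log2 ratios between 2 genes does not depend on the scale set between the groups. It was 4.58 for his-15 over his-9, 4.76 for his-11 over his-13 and 5.998 for his-44 over his-25, genes whose copies may share reads. Against his-42, the H3 gene of the locus with a symbol of its own, the difference for his-15 was smaller, 3.54. No spread between libraries stands behind these differences.

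**Figure D3:**
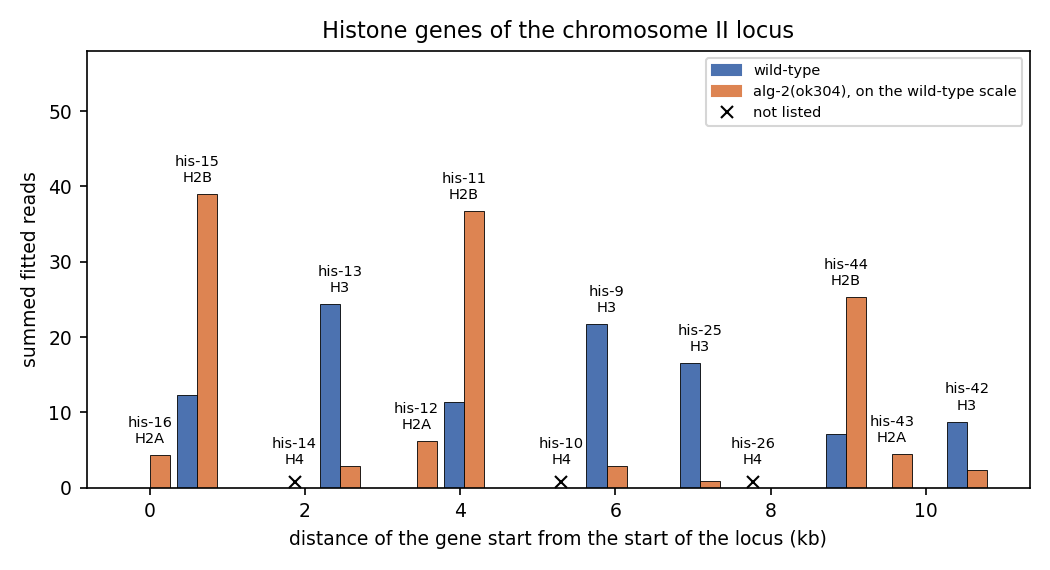
Summed fitted reads (vertical axis) of the 13 histone genes of the chromosome II locus by the distance of their start from the start of the locus (horizontal axis, kb), in wild type and in the mutant on the wild-type scale, with crosses for genes not listed. H3 genes were higher in wild type and H2B and H2A genes higher in the mutant, in alternation along the locus.

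Copies under 1 symbol had like values in some cases and not in others, and they are not independent measurements. The Ensembl names give 14 symbols to 36 of the 71 genes, and 8 of these symbols cover at least 2 listed genes. his-9, his-13 and his-25 share 1 symbol and had 16.6 to 24.3 fitted reads in wild type, but 2.35 to 7.34 in the mutant. his-11, his-15 and his-44 share another and had log2 ratios between 1.62 and 1.76 with a pseudocount of 0.5. his-22 and his-52 had nearly equal values, whereas his-20 and his-54, which share their symbol, were listed at 0. The sources used here do not say how reads with several positions in the genome were treated. The value of a single copy is therefore uncertain, and the 3 H3 copies, or the 3 H2B copies, may hold the same reads. The coding sequences were not compared here.

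Genes with introns were read next, and of those listed only his-72 lies in a locus of its own. The 5 listed genes with introns, his-35, C50F4.6, his-37, his-41 and his-72, were all above 0 in at least 1 group, against 20 of the 30 listed genes without introns. Of the 5739 genes of the table, 4786 were above 0 in at least 1 group, and nothing is read from a difference over so few genes. his-72 (WBGene00001946; chromosome III, 12367475 to 12369050), which encodes a replacement H3, had 0.243, 0.339 and 0.369 fitted reads in wild-type libraries 1 to 3 and 7.98, 9.36 and 17.9 in those of the mutant. The sums were 0.951 and 35.2, and the log2 ratio of 3.86 was the highest among histone genes above 0 in both groups, but it rests on less than 1 fitted read in wild type. Y49E10.36 overlaps his-72, and whether they share reads was not tested. On the common scale his-72 and the H3 genes of the chromosome II locus thus stood on opposite sides, with a difference of log2 ratios of 6.78 between his-72 and his-9. This was not a split of replacement H3 from all other H3, as his-17 was listed at 0 and 7.38 fitted reads. The H3 variant gene his-70, without introns, was listed at 0 and 2.84 fitted reads.

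A group of 4 genes with introns lies together on chromosome V, from 9544659 to 9547607. his-35 and his-37 were described above. The H2B gene his-41 had 7.99 fitted reads in wild type against 36.3 in the mutant (log2 ratio 0.83), within 2-fold on the common scale. C50F4.6, which overlaps his-41 on the same strand, had 0.950 fitted reads in wild type against 16.4 in the mutant (log2 ratio 2.76). Per kb of exon and before scaling, the genes with introns had a median of 1.49 fitted reads in wild type, with a range of 0 to 15.5, and a median of 55.2 in the mutant, with a range of 23.5 to 98.5. The 20 genes without introns had medians of 3.19 and 19.8 and ranges of 0 to 59.2 and 0 to 269. The ranges overlapped in both groups. Genes with introns took 10.8% of the fitted histone reads in wild type and 26.4% in the mutant. All but 1 of the 64 genes without introns are annotated without untranslated regions. A gene with any annotated transcript of 1 exon was counted as without introns. his-57 was counted so, though its 678 exonic bases lie in a longer stretch, 11340390 to 11341703. The split is therefore uncertain for his-57.

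By position, the 71 annotated genes fall into 17 loci when genes within 5 kb of each other are joined. Of these, 11 held a listed gene and 9 a gene above 0. Among loci with more than 1 listed gene, each listed gene was above 0 in the chromosome II locus, in the group of genes with introns on chromosome V and in the locus of his-65 and his-66 on chromosome IV. The 4 genes his-1 to his-4 of chromosome V, the 6 genes his-29 to his-34 and the 4 genes his-59 to his-62 of chromosome IV, and his-38 and his-40 of chromosome X were not listed.

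The direction of a histone gene could depend on the scale. Relative to the totals of all genes, which ribosomal RNA dominates, the log2 ratio of his-42 was 0.59 in place of -1.87. Relative to the totals that leave out ribosomal RNA and its neighbouring genes within 2 kb, that of his-41 was -0.48 in place of 0.83. The other 11 genes above 0 in both groups had 1 direction on the 5 scales tried, 6 of them higher in the mutant and 5 lower. On these scales the log2 ratio of his-15 ranged from 0.35 to 4.13 and that of his-9 from -4.23 to -0.45.

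**Figure D4:**
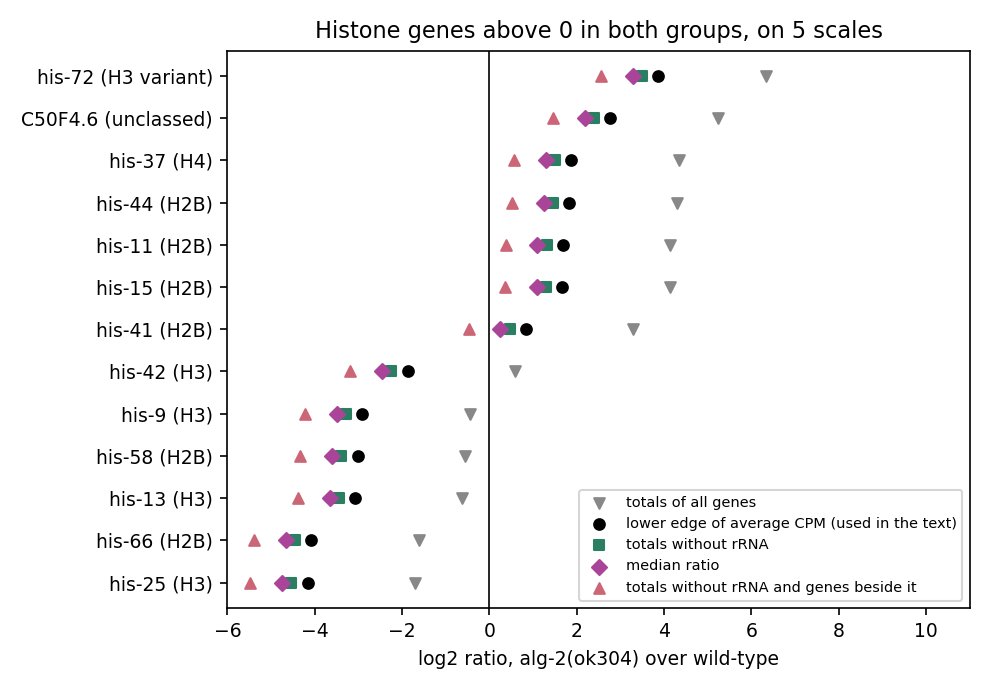
Log2 ratio of the mutant over wild type (horizontal axis) on 5 scales between the groups (symbols) for the 13 histone genes above 0 in both groups. his-42 and his-41 cross 0, and the other genes keep 1 side.

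Genes that act on histones were read from a list of chaperones, variants and replication genes. Of the 11 genes for variants and linkers outside the his names, hil-2, hil-4 and hil-5, of the linker histone family, were listed, all at 0 in both groups, and cdl-1, for the protein that binds the histone stem-loop, was not listed. Of 10 chaperone and assembly genes 6 were listed and above 0, 3 at least 2-fold higher in the mutant and 2 at least 2-fold lower, beside 54.3% and 17.7% of all genes. chaf-1, for a subunit of the chromatin assembly factor, had 355 fitted reads in wild type against 358 in the mutant (log2 ratio -1.34). nap-1, for a nucleosome assembly protein, had 80.7 and 65.5, a log2 ratio of -1.65. hira-1, whose relatives in other animals deposit replacement H3, was listed at 0 and 11.7 fitted reads. hmg-4, for a part of the FACT complex, had 10.9 and 57.8, a log2 ratio of 1.06. These directions turned with the scale: by the totals of all genes the log2 ratios of chaf-1 and nap-1 were 1.12 and 0.81, and by the totals without ribosomal RNA and its neighbours that of hmg-4 was -0.25. Of 11 replication genes, 6 were listed and 3 were above 0. pcn-1, for the sliding clamp of DNA polymerase, was listed at 0 for wild type and had 6.95 fitted reads in the mutant, and rnr-1, for a subunit of ribonucleotide reductase, at 0 and 1.66. cye-1, for the cyclin E that drives entry into S phase, went the other way, at 66.1 in wild type and 0 in the mutant. The part of dividing cells, or of any other tissue, in the histone values was not tested.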

How the data were processed

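RNA recovered with neuronally tagged polysomes in 6 libraries, 3 per group by their titles, was analysed from 1 deposited table. Per the labels and the study's methods, the authors clipped adapters (cutadapt 2.10), used HISAT2 (2.2.0 in the labels) for alignment on WBcel235, assigned reads by featureCounts (Subread 2.0.0) to Ensembl release 96 and fitted edgeR (3.11), with a minimum of 1 CPM in at least 2 libraries that the methods state for small RNA. Strand and multi-mapping settings are not given in the sources used here. The deposited library columns are fitted values on the scale of reads, with no spread between replicates, and the authors' average log2 CPM rests on further libraries too. Columns with the authors' own p-values and FDR were not used. The planned count test could not be run on fitted values. The depth of sequencing is unknown, and no interval is given.

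Fitted reads were summed per group. The scale between the groups was estimated by regression on the lower edge (5% quantile) of the average CPM, which gave a log2 shift of 1.35, and 1.30 to 1.35 for quantiles of 1% to 20%. Tested on simulated data, the method put the shift somewhat too high in each run. A pseudocount of 0.5 fitted reads on the wild-type scale was used for calls past 2-fold, and none for single ratios. Sums of 0 have no fold. Classes came from coding length in Ensembl release 115 and from symbols. A gene with any transcript of 1 exon was taken as without introns. The split by introns was set after the levels were seen, because nearly all genes have a histone neighbour within 5 kb. By rule every histone gene could be named, with values for those with at least 10 fitted reads in 1 group. Values of the 9 lower genes above 0 are printed too, beyond that rule. The genes and lists were chosen with earlier results of these data known. Python 3.11.15, numpy 2.4.6, pandas 2.3.3, statsmodels 0.14.6 and matplotlib 3.10.9 were used.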

Additional observations from a re-analysis of the deposited data

How the results depend on the processing

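The log2 ratio of the summed histone level, 0.67, was 3.13 by the totals of all genes, 0.30 by the totals without ribosomal RNA genes, -0.63 by the totals that also leave out the 23 genes beside them (16 of them mitochondrial), 0.0929 by the median ratio and 0.67 with a pseudocount of 2, so that no direction of the sum can be given. The number of genes at least 2-fold higher in the mutant, 17, became 11 without ribosomal RNA and the genes beside it and 11 at a threshold of 4-fold. The number at least 2-fold lower, 7, became 3 by the totals of all genes and 3 with at least 10 fitted reads in 1 group. The shares of all genes at these settings were not computed, and a change of scale or threshold acts on other genes too. Nothing particular to histone genes is read from these counts. By the totals of all genes his-42 turned, to 0.56 with the pseudocount. The histone shares, 0.0140% (wild type) and 0.0173% (mutant), became 0.0315% and 0.0203% without the genes beside ribosomal RNA, which turns their order, and 0.000294% and 0.00258% of all fitted reads. No paired analysis was possible because the library columns are fitted values without replicate spread. For the same reason leaving out single libraries was not run. The count of windows unique in the genome was not run, as no genome was used here.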
